A study of Mus musculus with 19 samples.

Results

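Bone marrow antibody-secreting cells (ASC) were set against naive splenic B cells. The 6 libraries of the comparison, 3 per group, were chosen by their sample labels out of 19 libraries in 6 groups. Bone marrow ASC were sorted as CD138+ cells, and naive B cells from spleen as CD3-, B220+ and IgD+ cells. All mice had been given washed sheep red blood cells into the peritoneum, and both tissues were taken on day 28. The labels call both groups wild type, while a genotype line in the deposited tables reads HET above the same columns, so the genotype carries that doubt. The series design names 3 wild-type and 4 Pik3cg knockout mice and does not tie a library to a mouse, so the p-values below measure the spread between these libraries. Spleen ASC (n = 3, CD138+, same immunization, label and table heading) are given beside the bone marrow cells where they show what differs between ASC of both organs. Cell type, organ and deposited table change together between bone marrow ASC and naive B cells and cannot be told apart.

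An ASC is a B cell that has given up antigen presentation and turned its endoplasmic reticulum (ER) over to making immunoglobulin. Blimp-1 (Prdm1), Irf4 and Xbp1 drive that change, and Pax5 holds the B cell state that precedes it. In bone marrow such cells can live long without dividing, in niches where stromal and myeloid cells supply APRIL, IL-6 and the ligands of CD28, and where the receptor BCMA (Tnfrsf17) sustains Mcl1. Naive B cells rest as well, held by factors such as Klf2, Foxo1, Btg1 and Slfn2, and depend on the BAFF receptor (Tnfrsf13c).

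Values were deposited by the authors as counts per 1000000 assigned reads (CPM). Immunoglobulin genes and Jchain took 78.0% to 83.6% of the reads in bone marrow ASC, 72.3% to 76.7% in spleen ASC and 3.90% to 4.16% in naive B cells, so the CPM were rescaled without them. That left 2.03 to 3.88 M (1 M is 1000000) reads per bone marrow ASC library, 3.06 to 4.54 M in spleen ASC and 10.9 to 12.5 M in naive B cells. A rescaled level of 10 stands for 20.3 to 38.8 reads in bone marrow ASC and 109 to 125 reads in naive B cells, so low genes are measured less firmly in the ASC. Replicates correlated at 0.747 to 0.790 in bone marrow ASC, 0.858 to 0.860 in spleen ASC and 0.909 to 0.924 in naive B cells (Pearson, log2 values across 9180 genes, which are not independent replicates). Bone marrow ASC replicate 3 stood apart in genes of B cell precursors and of the cell cycle, as described below. All 7 tested markers of ASC were higher in bone marrow ASC and all 9 tested markers of naive B cells were lower. Pik3cg stood at 101, 174 and 175 rescaled CPM in bone marrow ASC and 119, 115 and 115 in naive B cells.

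Of 9221 genes with a mean of at least 10 rescaled CPM, 2433 (26.4%) passed limma with a Benjamini-Hochberg adjusted p under 0.05. Of these, 1294 (14.0% of genes tested) were higher and 1139 (12.4%) were lower in bone marrow ASC, and the median log2 fold change of all genes tested was −0.03. The values of the groups did not overlap in 44.5% of all genes tested (23.0% higher and 21.6% lower). Log2 fold changes are of rescaled CPM plus 1, bone marrow ASC over naive B cells, and understate the change of low genes. A gene near 0 in 1 group reached the mean of 10 only through the other group, so counts of such genes lean to that group. As a share of all reads, the picture tilts: on CPM as deposited the median gene had a log2 fold change of −2.36, and of 7251 genes tested 6760 (93.2%) were called, 126 (1.74%) higher and 6634 (91.5%) lower. Of the 960 genes called higher here that were also tested on CPM as deposited, 126 were called higher and 485 lower there, whereas all 1124 tested genes called lower were lower on both scales. Every "higher" below therefore means higher among transcripts other than immunoglobulin, and counts on CPM as deposited stand beside those of the lists. Those counts are to be read against the 91.5% of all genes tested that were lower on that scale. With voom, which weights estimated reads by their precision, 20.6% of all genes were called (12.7% higher and 7.94% lower). Of 112 named genes called against naive B cells, 43 were not called with voom, most of them averaging under 10 rescaled CPM in 1 of the groups. The voom adjusted p was 0.108 for Prg2, 0.187 for Cd28 and 0.0851 for Prdm1. Bhlha15, Ciita, Pax5, Wipi1, Tfeb, Il4ra, Il6st, Cxcr4, Nr4a1, Mpo, Elane, S100a8, Hbb-bs and Ctla4 were also among those not called. Leaving out 1 naive library at a time gave 1573, 1524 and 1499 calls, and leaving out bone marrow ASC replicate 1, 2 or 3 gave 2344, 2070 and 2657.

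**Figure D1:**
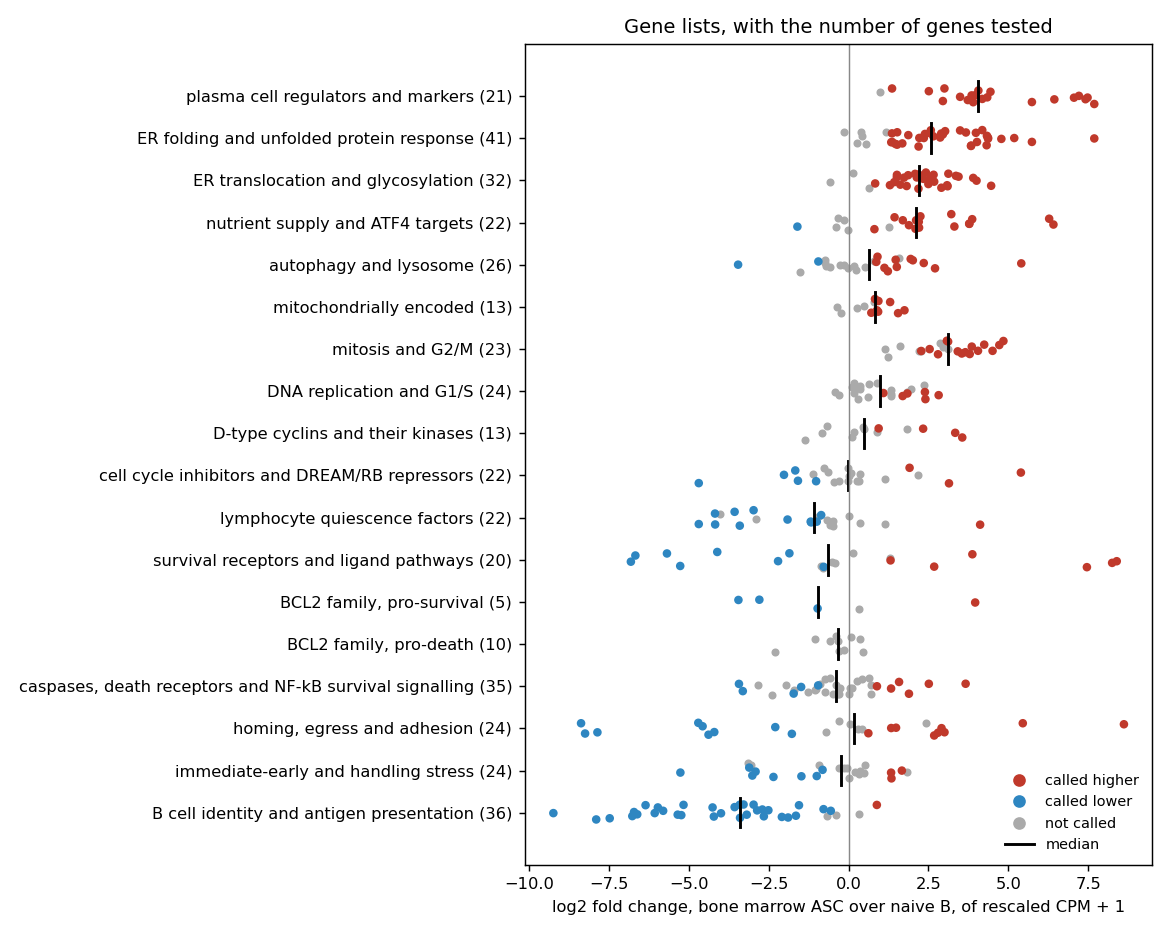
Log2 fold change of each tested gene (bone marrow ASC over naive B cells, rescaled CPM plus 1) in 18 gene lists, with the number of genes tested in brackets. Red points were called higher, blue points called lower, grey points were not called, and the black bar is the median of the list. The plasma cell list has its median at 4.06 and the B cell identity list at −3.40; on CPM as deposited the median of all genes is −2.36, and the medians of these lists are lower there as well.

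The gene with the largest rise was Prg2, which encodes the major basic protein of eosinophil granules (ENSMUSG00000027073, mm10 chromosome 2, 84980461 to 84983632, plus strand). Prg2 stood at 992, 628 and 438 rescaled CPM in bone marrow ASC and was listed at 0 in all 3 naive libraries. That is at least 2631-fold higher when 3 reads are taken as the floor of each naive library (log2 fold change 9.34, SE 0.38, limma adjusted p = 2.31e-05). Spleen ASC held 357, 438 and 175. Of the 16 eosinophil, basophil and mast cell markers, 4 were at 0 in all bone marrow ASC libraries and 12 in all naive libraries. Siglecf was at 0 in all 9 libraries and the eosinophil peroxidase gene Epx was at 0, 0 and 5.42 in bone marrow ASC. Prss34, also on the list, was called higher (log2 fold change 5.38, limma adjusted p = 0.00242) and Il5ra lower (−5.69, limma adjusted p = 0.000557). The whole list summed to 471 to 1075 in bone marrow ASC and 63.6 to 90.1 in naive B cells, most of it Prg2 in the ASC, and 2 of 3 tested were higher and 1 lower (1 and 1 of 2 on CPM as deposited, 0 with voom); their part in the Prg2 result was not tested. In these bulk samples more cells of a type and more RNA per cell cannot be told apart.

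Next came Ccr10, the receptor for the epithelial chemokines CCL27 and CCL28, and Slpi, a secreted inhibitor of leukocyte proteases. Slpi stood at 1155, 3818 and 3364 rescaled CPM in bone marrow ASC and 1.68, 12.3 and 6.78 in naive B cells. H1f0, a linker histone that accumulates in many cells that have stopped dividing, stood at 1097, 1336 and 901 in bone marrow ASC and 3.19, 0 and 10.5 in naive B cells (log2 fold change 8.24, SE 0.79, limma adjusted p = 0.000450). The rest of the 10 largest rises were Tnfrsf17, Cd28, Fgl2, Pls1, Derl3 and Sdc1, with log2 fold changes between 7.48 and 8.40. Sdc1 encodes CD138, on which the cells were sorted, so its level checks the gate and is no finding. Among the 10 largest falls were Fcer2a, H2-Oa, H2-DMb2, Cxcr5, Cr2, Ccr6, Cd83, Rasgef1b and Il4ra, with log2 fold changes between −9.25 and −6.82. H2-Oa, Ccr6, Rasgef1b and Il4ra were listed at 0 in all 3 bone marrow ASC libraries.

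Of 21 tested plasma cell regulators and markers, 20 were higher and 0 lower, with a median log2 fold change of 4.06 against −0.03 for all genes tested. On CPM as deposited 18 were higher and 2 lower. Prdm1 stood at 468, 300 and 248 rescaled CPM in bone marrow ASC and 0, 8.11 and 0.183 in naive B cells (log2 fold change 7.21, SE 0.83, limma adjusted p = 0.000922). Xbp1 stood at 20886, 22613 and 16904 in bone marrow ASC and 402, 341 and 378.8 in naive B cells (log2 fold change 5.74, SE 0.15, limma adjusted p = 8.73e-06). Irf4, which naive B cells also express, rose by 3.00 on the log2 scale (SE 0.22, limma adjusted p = 0.000141). Bhlha15, which encodes the secretory cell factor Mist1, stood at 103, 207 and 231 in bone marrow ASC and at 0 in all 3 naive libraries, at least 691-fold higher.

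The B cell identity and antigen presentation list went the other way, with 32 of 36 tested genes lower and 1 higher and a median of −3.40; on CPM as deposited all 36 were lower. Pou2af1, the coactivator of octamer factors at immunoglobulin promoters, was the member that rose. Its call was lost without naive replicate 1 or 3, when 0 members were higher. Ciita, the master regulator of MHC class II, stood at 2.94, 1.97 and 0 in bone marrow ASC and 239, 231 and 276 in naive B cells. Pax5 stood at 5.50, 0 and 37.2 in bone marrow ASC and 218, 216 and 244 in naive B cells (log2 fold change −5.17, SE 1.15, limma adjusted p = 0.0155). It lost its call without any 1 of the naive libraries (highest adjusted p = 0.0557). The highest Pax5 value among the ASC was that of replicate 3.

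Genes of ER folding and the unfolded protein response rose almost as a block, with 35 of 41 tested higher and 0 lower and a median of 2.57. On CPM as deposited, where immunoglobulin reads dilute the rest, 15 were higher and 12 lower of 38 tested, with a median of 0.19. Derl3, which helps pull misfolded proteins out of the ER, stood at 847, 913 and 779 rescaled CPM in bone marrow ASC and 5.59, 1.69 and 2.84 in naive B cells (log2 fold change 7.69, SE 0.34, limma adjusted p = 2.89e-05). Creld2, an ER-stress-induced disulfide isomerase, stood at 814, 669 and 564 in bone marrow ASC and 19.6, 18.2 and 15.1 in naive B cells. Hspa5, the abundant ER chaperone BiP, rose by 2.87 on the log2 scale.

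The ER stress response element (ERSE, CCAAT and CCACG with 9 bases of any kind between) is read by ATF6 and XBP1 with NF-Y. RefSeq promoter windows (GRCm38.p6, 250 bases before to 50 after each start) were found for 34 of the 41 genes of the list. The element, on either strand, was in 9 of these 34 (26.5%) and in 11 of 6151 promoters of all genes tested (0.179%). The shorter CCAAT box, which lies within it, was in 79.4% of the list and 43.6% of all genes tested. Shown because these 3 genes carry the element and rose by 7.69, 5.19 and 2.87 are the 200 bases before their starts, 5′ to 3′ on the strand of the gene, with the element in capitals: Derl3 at chr10:75893198-75893397 (plus), Creld2 at chr15:88819446-88819645 (plus) and Hspa5 at chr2:34771890-34772089 (plus).
Derl3: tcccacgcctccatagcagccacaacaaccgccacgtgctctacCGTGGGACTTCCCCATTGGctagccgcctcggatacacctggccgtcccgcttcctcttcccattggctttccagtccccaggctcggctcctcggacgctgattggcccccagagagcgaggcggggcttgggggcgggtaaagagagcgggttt
Creld2: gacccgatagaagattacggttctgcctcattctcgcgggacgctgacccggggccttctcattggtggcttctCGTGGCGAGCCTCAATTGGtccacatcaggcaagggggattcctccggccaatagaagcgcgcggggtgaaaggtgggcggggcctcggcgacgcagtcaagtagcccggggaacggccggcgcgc
Hspa5: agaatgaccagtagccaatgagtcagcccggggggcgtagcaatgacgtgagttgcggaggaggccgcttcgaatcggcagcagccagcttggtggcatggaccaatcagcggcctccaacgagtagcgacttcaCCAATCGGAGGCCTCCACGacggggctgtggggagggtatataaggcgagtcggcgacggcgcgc
In Derl3 and Creld2 the element lies on the opposite strand, in Hspa5 on the strand of the gene. Genes with the element that are not shown had log2 fold changes of 4.02 (Hsp90b1), 3.02 (Dnajc3), 2.57 (Pdia6), 1.52 (Calr), 1.52 (Syvn1) and 0.407 (Canx). A match describes letters and is not a measured binding site.

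Supply lines of secretion rose with the folding genes. In ER translocation and glycosylation, 29 of 32 tested genes were higher and 0 lower (median 2.19); on CPM as deposited 9 were higher and 12 lower. Among nutrient supply and ATF4 targets, 16 of 22 were higher and 1 lower (median 2.10), against 4 higher and 7 lower of 19 on CPM as deposited. Asns, which makes asparagine, stood at 187, 234.8 and 159 in bone marrow ASC and 3.04, 0 and 1.83 in naive B cells (log2 fold change 6.41, SE 0.56, limma adjusted p = 0.000293). Enpp1, a surface nucleotide pyrophosphatase linked to plasma cell glucose use, stood at 222, 233 and 141 in bone marrow ASC and 16.1, 29.9 and 16.5 in naive B cells.

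Autophagy and lysosome genes moved less uniformly, with 11 of 26 higher and 2 lower (median 0.65), and 0 higher and 16 lower of 20 on CPM as deposited. Wipi1, which binds phosphoinositides on the forming autophagosome, rose by 5.41 (SE 0.85, limma adjusted p = 0.00362), while Tfeb, a transcription factor of lysosomal genes, fell by 3.46 on the log2 scale (limma adjusted p = 0.00777), a call lost without naive replicate 1 (adjusted p = 0.0564). Atg5, which plasma cells need for lasting antibody responses in mice, stood at 79.8, 93.2 and 97.3 in bone marrow ASC and 41.3, 56.6 and 49.7 in naive B cells. The groups did not overlap, but the Atg5 call (limma adjusted p = 0.0259) was lost without bone marrow ASC replicate 2 or any 1 naive library (highest adjusted p = 0.0918). Atg7 did not pass (log2 fold change −0.15, SE 0.63). Of 13 mitochondrially encoded genes, 8 were higher (median 0.83), with 3 to 10 higher when 1 library was left out, and 12 were lower on CPM as deposited.

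The resting state of the bone marrow cells was examined through 5 lists. Among transcripts other than immunoglobulin, those of division were above the level of naive B cells, and 11 of 22 factors that hold lymphocytes at rest were lower in the ASC. Of 23 tested mitosis and G2/M genes, 15 were higher and 0 lower, with a median of 3.11; with voom 6 were higher, and without naive replicate 2 or 3 limma called 9 of 24. The 32 genes listed summed to 635, 655 and 2020 rescaled CPM in bone marrow ASC, 493, 790 and 568 in spleen ASC, and 174, 88.8 and 82.9 in naive B cells. All 3 bone marrow ASC libraries lay above the naive libraries, and replicate 3 lay well above the other two. On CPM as deposited the same sums were 110, 108 and 445 in bone marrow ASC and 167, 85.3 and 79.6 in naive B cells, so that the groups overlapped and 0 of 3 genes tested were called. Without replicate 3, fewer genes reached the filter and 8 of 13 were higher, when 29.2% of all genes tested were called (13.0% higher and 16.2% lower).

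Mki67, the Ki-67 proliferation marker (ENSMUSG00000031004, mm10 chromosome 7, 135689784 to 135716361, minus strand), stood at 54.2, 60.7 and 129 in bone marrow ASC and 21.2, 0.0892 and 0 in naive B cells. Its log2 fold change was 4.72 (SE 1.19, limma adjusted p = 0.0248), and the call was lost without bone marrow ASC replicate 2 or 3 or naive replicate 2 or 3 (highest adjusted p = 0.0788). Spleen ASC held more, at 150, 237 and 134, above every bone marrow value, although that difference did not pass over all genes (log2 fold change of bone marrow over spleen ASC −1.15, SE 0.37, limma adjusted p = 0.433). Cdk1, the kinase that starts mitosis, stood at 17.6, 25.7 and 44.4 in bone marrow ASC and 0, 0 and 0.916 in naive B cells. Birc5, the survivin of the chromosomal passenger complex, stood at 57.6, 49.3 and 116 in bone marrow ASC and 1.44, 4.90 and 0 in naive B cells. Kif11, a spindle motor, stood at 9.24, 20.7 and 91.1 in bone marrow ASC and 2.00, 0 and 0 in naive B cells. With voom the adjusted p was 0.156 for Mki67, 0.0896 for Cdk1, 0.106 for Birc5 and 0.269 for Kif11. In every one of these genes the highest library was bone marrow ASC replicate 3 among the marrow cells.

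The cell cycle genes homology region (CHR, TTTGAA on either strand) is the element through which the DREAM complex silences mitotic genes in resting cells. It was in the promoter window of 17 of 20 mitosis and G2/M genes with a window (85%) and in 14.6% of promoters of all genes tested. It was in 14.5% of the promoters of genes called higher and 17.6% of those called lower. The 100 bases before the start are shown for Cdk1, which carries it at a pair of places, and for Kif11 and Mki67, the other named mitotic genes with a match there; capitals mark the CHR. Cdk1 lies at chr10:69353013-69353112 (minus), Kif11 at chr19:37376282-37376381 (plus) and Mki67 at chr7:135716480-135716579 (minus), in GRCm38.p6 from RefSeq.
Cdk1: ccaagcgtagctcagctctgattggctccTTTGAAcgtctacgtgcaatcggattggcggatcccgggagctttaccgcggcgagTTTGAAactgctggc
Kif11: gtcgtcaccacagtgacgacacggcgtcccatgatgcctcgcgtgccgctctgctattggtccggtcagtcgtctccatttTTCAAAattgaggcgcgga
Mki67: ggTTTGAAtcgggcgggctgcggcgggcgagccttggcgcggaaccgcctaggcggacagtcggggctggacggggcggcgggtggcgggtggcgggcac
The letters alone say nothing of which complex was bound in these cells.

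Genes of DNA replication and G1/S moved less, with 6 of 24 higher and 0 lower (median 0.98), 3 to 9 higher when 1 library was left out, and 12 of 15 lower on CPM as deposited. Without bone marrow ASC replicate 3 the median was 0.24, against −0.11 for all genes tested, and 4 of 21 were higher. The 32 genes summed to 1182, 1273 and 2976 in bone marrow ASC and 860 to 927 in naive B cells. Rrm2, the regulated subunit of ribonucleotide reductase, stood at 97.0, 140 and 353.7 in bone marrow ASC and 29.6, 15.4 and 26.7 in naive B cells (log2 fold change 2.82, SE 0.50, limma adjusted p = 0.00592). The list of D-type cyclins and their kinases also holds other genes, and 4 of 13 tested were higher and 0 lower. These were Cdc25a, Mxi1, Mxd4 and Ccnd2, so Ccnd2 was the only D-type cyclin called. The median was 0.49, and 0.14 without bone marrow ASC replicate 3. When 1 library was left out, 2 or 3 were higher, and on CPM as deposited 8 of 10 were lower. Ccnd2 stood at 210, 399 and 405 in bone marrow ASC and 192, 165 and 151 in naive B cells. This call (log2 fold change 0.94, limma adjusted p = 0.0427) was lost without bone marrow ASC replicate 2 or 3 or any 1 naive library (highest adjusted p = 0.135). Ccnd3, the D cyclin of dividing B cell precursors, stood at 93.6, 132 and 542 in bone marrow ASC and 106, 102 and 99.7 in naive B cells, so replicate 1 lay below the naive values and replicates 2 and 3 above them. Myc did not pass (102, 64.6 and 233 in bone marrow ASC, 189, 129 and 266 in naive B cells).

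Cell cycle inhibitors and members of the DREAM and RB complexes split, with 3 of 22 higher and 5 lower and a median of −0.02. Over all genes tested 14.0% were higher and 12.4% lower, with a median of −0.03. The higher share and the median of the list were close to these. On CPM as deposited 1 was higher and 14 lower of 18, where 91.5% of all genes tested were lower. Trp53inp1, a p53-induced stress protein that slows division and serves autophagy, stood at 2546, 3845 and 2444 in bone marrow ASC and 50.2, 82.2 and 74.5 in naive B cells (log2 fold change 5.39, SE 0.25, limma adjusted p = 3.07e-05). Spleen ASC held 3369, 2460 and 2592. Cdkn2c, the Cdk4 and Cdk6 inhibitor p18, stood at 60.5, 47.9 and 31.2 in bone marrow ASC and 5.91, 3.83 and 3.21 in naive B cells (log2 fold change 3.14, SE 0.45, limma adjusted p = 0.00236). Cdkn1b, which encodes p27, did not pass (log2 fold change −1.13, 95% interval −1.98 to −0.28, limma adjusted p = 0.0582). Cdkn1a, which encodes p21, averaged too little to be tested, at 6.72, 0 and 18.3 in bone marrow ASC and 0, 1.07 and 1.92 in naive B cells.

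Of 22 tested lymphocyte quiescence factors, 11 were lower and 1 higher in bone marrow ASC (median −1.09). On CPM as deposited 21 were lower and 1 higher, where 91.5% of all genes tested were lower. Btg1, an antiproliferative cofactor of mRNA deadenylation, stood at 68.9, 35.5 and 37.2 in bone marrow ASC and 1062, 1187 and 1336 in naive B cells (log2 fold change −4.69, SE 0.27, limma adjusted p = 6.07e-05). Slfn2, whose loss breaks T cell quiescence in mice, fell by 4.19 on the log2 scale, and Klf3, a repressor related to Klf2, by 4.18. The factor most often named for lymphocyte rest did not pass: Klf2 stood at 163, 125 and 64.5 in bone marrow ASC and 138, 195 and 206 in naive B cells (log2 fold change −0.69, 95% interval −1.52 to 0.14). Foxo1 also did not pass (−0.48, 95% interval −0.89 to −0.07, limma adjusted p = 0.0826). Vsir, which encodes the inhibitory receptor VISTA and is needed for naive T cell quiescence in mice, was the member that rose, at 247, 317 and 276 in bone marrow ASC and 11.7, 14.8 and 19.8 in naive B cells.

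**Figure D2:**
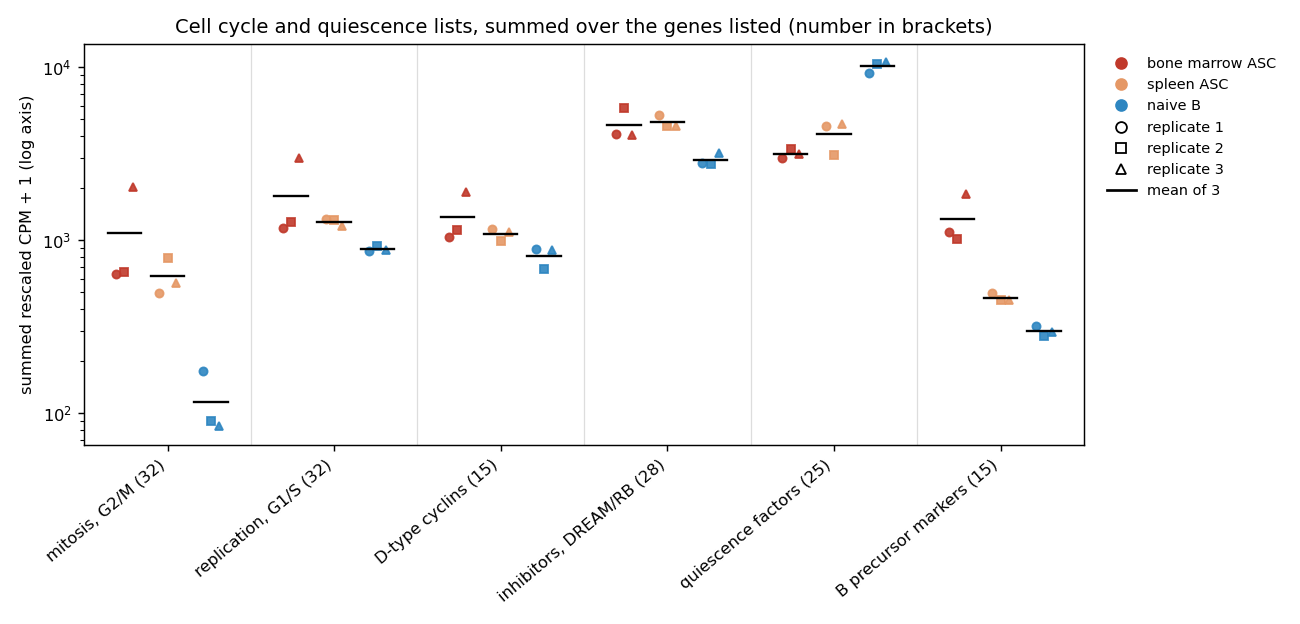
Summed rescaled CPM plus 1 (log axis) of 5 cell cycle and quiescence lists and of the B cell precursor markers in each library, with the number of genes in brackets. Bone marrow ASC, spleen ASC and naive B cells run from left to right in each list, symbols mark replicates and bars the mean of 3. Bone marrow ASC replicate 3 is the highest library in the mitosis (2020), replication (2976), cyclin (1910) and precursor (1852) sums, while the quiescence factors sum to 2984 to 3381 in bone marrow ASC and 9247 to 10686 in naive B cells.

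Survival receptors moved in both directions. Of 20 tested genes of survival receptors and their ligand pathways, 6 were higher and 8 lower, and on CPM as deposited 3 were higher and 13 lower of 19; with voom 3 were higher and 4 lower. Tnfrsf17, which encodes BCMA (ENSMUSG00000022496, mm10 chromosome 16, 11313812 to 11320074, plus strand), stood at 303, 390 and 321 rescaled CPM in bone marrow ASC and was listed at 0 in all 3 naive libraries. It was at least 1297-fold higher (log2 fold change 8.40, SE 0.34, limma adjusted p = 2.31e-05). Cd28, the costimulatory receptor that also sustains long-lived plasma cells in mice (mm10 chromosome 1, 60716800 to 60773359, plus strand), stood at 745, 473 and 307.3 in bone marrow ASC and 0, 0 and 2.84 in naive B cells (log2 fold change 8.25, SE 0.62, limma adjusted p = 0.000170). The values of spleen ASC overlapped those of bone marrow ASC, at 551, 343.4 and 490 of Tnfrsf17 and 791, 490 and 584 of Cd28.

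Cd93, a lectin-like receptor needed to maintain plasma cells in mouse bone marrow and also a marker of immature B cells, stood at 500, 370 and 250 in bone marrow ASC, 186, 187 and 143 in spleen ASC and 0, 7.49 and 0 in naive B cells. Its log2 fold change over naive B cells was 7.46 (SE 0.84, limma adjusted p = 0.000835), and it was not called with voom (adjusted p = 0.135). Il6st, the gp130 chain shared by IL-6 family receptors, stood at 87.0, 56.7 and 67.9 in bone marrow ASC and 4.87, 17.8 and 0 in naive B cells. The groups did not overlap, but the call (limma adjusted p = 0.0252) was lost without any 1 bone marrow ASC library or naive replicate 1 (highest adjusted p = 0.0670). The receptors of BAFF and APRIL differed in direction. Tnfrsf13b, which encodes TACI, stood at 2857, 2442 and 1902 in bone marrow ASC and 940, 876 and 1051 in naive B cells (log2 fold change 1.31, SE 0.17, limma adjusted p = 0.00169), and −1.07 on CPM as deposited. Tnfrsf13c, the BAFF receptor, stood at 283.1, 358 and 275.1 in bone marrow ASC and 1080, 1008 and 1221 in naive B cells (log2 fold change −1.86, SE 0.16, limma adjusted p = 0.000253). Il4ra was at 0 in all bone marrow ASC libraries and 91.9, 123 and 125 in naive B cells, at least 96.5-fold lower in the ASC against a floor of 3 reads per library.

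In the BCL2 family, 1 of 5 tested pro-survival genes was higher and 3 were lower, and with voom 0 were higher and 2 lower. Of 10 pro-death genes, 0 passed with limma or with voom (1 of 10 had an unadjusted limma p under 0.05). On CPM as deposited, 4 of 4 pro-survival and 9 of 9 pro-death genes tested were lower, where 91.5% of all genes tested were lower. Mcl1, on which plasma cell survival depends in mice, stood at 258.4, 274.8 and 272 in bone marrow ASC and 206, 240 and 203 in naive B cells. The groups did not overlap and the difference did not pass (log2 fold change 0.31, 95% interval −0.02 to 0.65, limma adjusted p = 0.155). Bcl2l1, which encodes BCL-XL, stood at 133, 24.2 and 43.1 in bone marrow ASC and 7.91, 3.39 and 0 in naive B cells (log2 fold change 3.96, SE 0.95, limma adjusted p = 0.0206). The call was lost without bone marrow ASC replicate 1 or naive replicate 2 (highest adjusted p = 0.0538) and with voom (adjusted p = 0.212). Bcl2 was lower at 124, 64.1 and 63.9 in bone marrow ASC, against 140, 150 and 186 in naive B cells. That call (limma adjusted p = 0.0484) was lost without bone marrow ASC replicate 2 or 3 or any 1 naive library (highest adjusted p = 0.159). Bcl2a1b, a copy of the A1 gene whose reads may be shared with Bcl2a1d, stood at 15.5, 25.1 and 4.33 in bone marrow ASC and 96.3, 88.8 and 87.2 in naive B cells.

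Bcl2l11, which encodes the death activator BIM, was low in the marrow cells: 0.420, 2.96 and 10.3 rescaled CPM in bone marrow ASC, 95.2, 151 and 72.9 in spleen ASC, and 35.1, 23.8 and 7.88 in naive B cells. Bone marrow ASC lay below every spleen ASC library but overlapped the naive range. Neither difference passed over all genes (against naive B cells log2 fold change −2.32, limma adjusted p = 0.107; against spleen ASC −4.68, SE 0.72, limma adjusted p = 0.143). Pmaip1, which encodes NOXA, ranged from 21.9 to 130 in bone marrow ASC and from 82.0 to 95.5 in naive B cells and did not pass. Among caspases, death receptors and NF-kB survival genes, 6 of 35 were higher and 5 lower (median −0.38). These counts lay near the shares of all genes tested, 14.0% higher and 12.4% lower. On CPM as deposited 1 was higher and 27 lower of 31, where 91.5% of all genes tested were lower. The serine/threonine kinase genes Pim1 and Pim2, induced by cytokines and protective of plasma cells, rose by 3.66 (SE 0.24, limma adjusted p = 0.000106) and 2.51 (SE 0.43, limma adjusted p = 0.00501). Rel, the NF-kB subunit of activated B cells, fell by 3.32 on the log2 scale.

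**Figure D3:**
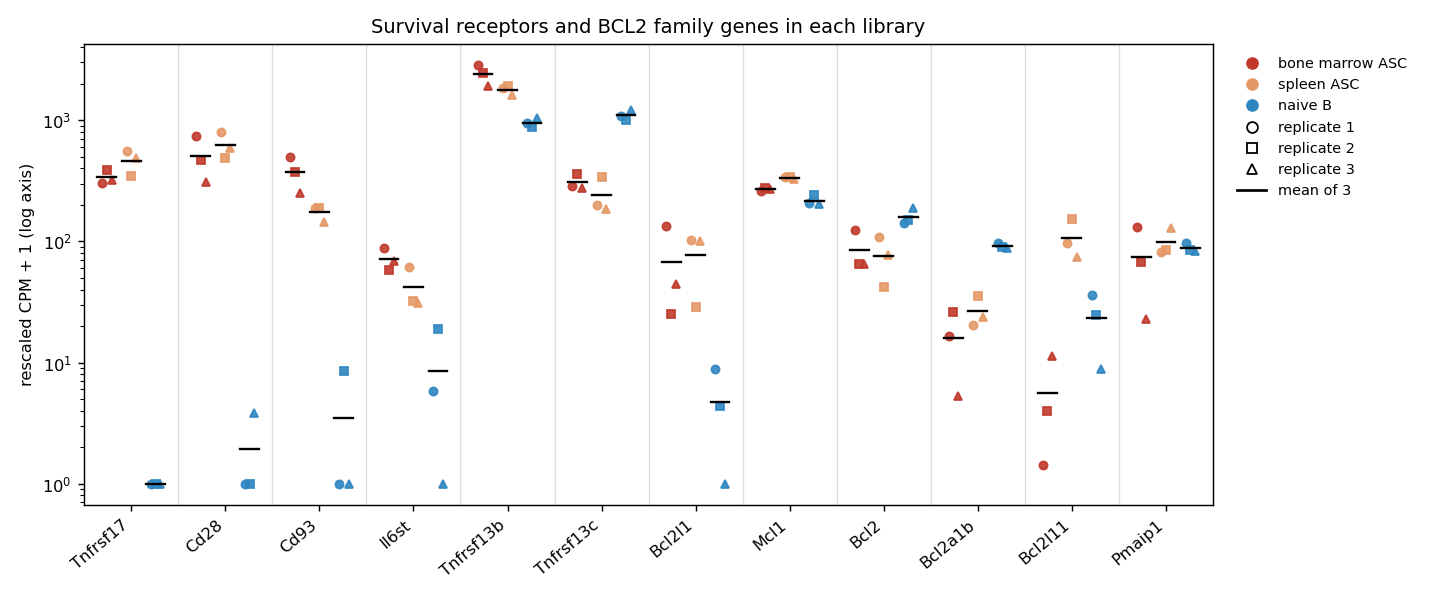
Rescaled CPM plus 1 (log axis) of 12 survival receptor and BCL2 family genes in each library. For each gene bone marrow ASC, spleen ASC and naive B cells run from left to right, symbols mark replicates and bars the mean of 3. Tnfrsf17 and Cd28 lie between 303 and 745 in bone marrow ASC and at or near 0 in naive B cells, while Bcl2l11 is at 10.3 or less in bone marrow ASC and at 72.9 or more in spleen ASC.

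Homing and adhesion genes were divided evenly, 9 of 24 higher and 9 lower, with 1 higher and 17 lower of 21 on CPM as deposited. Receptors that place naive B cells in lymphoid follicles were at or near 0 in bone marrow ASC. Cxcr5 stood at 0, 0 and 11.9, against 766, 861 and 719 in naive B cells. Ccr6 was at 0 in all 3 ASC libraries, against 202, 257 and 242 in naive B cells. Ccr10 (mm10 chromosome 11, 101172997 to 101175443, minus strand) stood at 328, 409 and 453 in bone marrow ASC and at 0 in all naive libraries, at least 1521-fold higher (log2 fold change 8.62, SE 0.34, limma adjusted p = 2.31e-05). Spleen ASC held less, at 147, 67.1 and 158, and although the groups did not overlap the difference did not pass over all genes (log2 fold change of bone marrow over spleen ASC 1.75, SE 0.33, limma adjusted p = 0.190). Cxcr4, the CXCL12 receptor that draws plasma cells to marrow, was lower, at 1.68, 10.9 and 11.6 in bone marrow ASC and 41.9, 23.8 and 43.8 in naive B cells. That call (log2 fold change −2.30, limma adjusted p = 0.0438) was lost without bone marrow ASC replicate 2 or any 1 naive library (highest adjusted p = 0.147), and with 1.68 to 11.6 in the ASC it rests on few reads.

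Genes that respond to handling within minutes did not rise as a group, with 3 of 24 higher and 8 lower. Of all genes tested, 14.0% were higher and 12.4% lower. On CPM as deposited 23 of 23 were lower, where 91.5% of all genes tested were lower. The heat shock genes Hspa1a and Hspa1b, near-identical copies whose reads may be split, were lower in bone marrow ASC. Hspa1a stood at 292, 268 and 311, against 1645, 3113 and 3104 in naive B cells (log2 fold change −3.11, SE 0.26, limma adjusted p = 0.000229). The activation-induced receptor gene Nr4a1 stood at 0, 4.93 and 0 in bone marrow ASC and 68.7, 59.7 and 79.5 in naive B cells.

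Markers of other marrow cells were present in the ASC libraries at low levels and unevenly. Of 9 tested neutrophil and precursor markers, 7 were higher and 1 lower in bone marrow ASC (median 4.30). There were 2 to 8 higher when 1 library was left out, and 0 higher and 1 lower of 4 tested on CPM as deposited. Of the 23 listed, 9 were at 0 in all naive libraries, so a marker could be tested only through its level in the ASC. A filter at a mean of 1 gave 7 of 20 higher and 1 lower, with a median of 2.92. With voom 0 of 9 were higher and 1 was lower. The 23 markers summed to 378.4, 1947 and 1366 rescaled CPM in bone marrow ASC, 25.3, 149.2 and 10.8 in spleen ASC, and 60.4, 274.7 and 125 in naive B cells. Bone marrow ASC replicate 1 was the lowest of its group, and all 3 lay above the naive libraries. Mpo, which encodes myeloperoxidase of granulocyte precursors, stood at 50.4, 135 and 86.4 in bone marrow ASC and at 0 in all 6 spleen ASC and naive libraries, at least 348-fold above naive B cells. Elane, which encodes neutrophil elastase, stood at 20.6, 72.0 and 41.3 and was likewise at 0 in all 6. S100a8, abundant in mature neutrophils, stood at 63.0, 225 and 183 in bone marrow ASC and 0, 32.0 and 9.62 in naive B cells. Its call (limma adjusted p = 0.0368) was lost without bone marrow ASC replicate 2 or 3 or naive replicate 3 (highest adjusted p = 0.106). The part of such cells in the other results was not tested. The 24 monocyte and macrophage markers summed to 89.3 to 629 in bone marrow ASC and 805 to 902 in naive B cells. Spleen ASC summed to 1034.8 to 1450.9. Of 6 tested, 0 were higher and 1 lower (0 and 1 of 2 on CPM as deposited), with a median of 0.64. Filtered at a mean of 1, 0 of 17 were higher and 1 lower, with a median of 0.54. Apoe alone stood at 17.6, 84.9 and 42.8 in bone marrow ASC and 762, 764 and 701 in naive B cells. Apoe made up most of each naive sum and a minor part of each bone marrow sum. The lower bone marrow sums therefore do not speak for the other markers of the list.

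Of 7 tested erythroid markers, 1 was higher and 3 were lower in bone marrow ASC. None was called when any 1 naive library was left out, 1 was higher and 0 lower with voom, and 6 of 6 were lower on CPM as deposited. The 18 erythroid markers summed to 82.8 to 291 in bone marrow ASC and 312 to 1428 in naive B cells. Hbb-bs, an adult beta globin gene, stood at 0, 20.2 and 21.7 in bone marrow ASC and 99.3, 424 and 148 in naive B cells. Its lower call (limma adjusted p = 0.0305) was lost without any 1 naive library (highest adjusted p = 0.104). Megakaryocyte markers summed to 0.258 or less in bone marrow ASC. T cell markers were low: Cd3e was at 0 in all 3 bone marrow ASC libraries and Trbc1 and Trbc2 likewise. In all, 10 of 20 T cell markers were at 0 in these 3 libraries. The 20 markers summed to 201.8 to 207.2 in bone marrow ASC and 573.7 to 659.5 in naive B cells. Spleen ASC lay between, at 306.8 to 410.2. Of 4 tested, 2 were higher and 1 lower, and on CPM as deposited 2 of 2 were lower. Filtered at a mean of 1, 2 of 16 were higher and 5 lower, with a median of −1.88. The inhibitory receptor gene Ctla4, on the T cell list, nevertheless stood at 124, 81.9 and 51.9 in bone marrow ASC and 202, 109 and 196 in spleen ASC, against 0.399, 0 and 0 in naive B cells (log2 fold change 6.19, SE 0.55, limma adjusted p = 0.000315). Prf1, which encodes perforin, stood at 145, 188 and 144 in bone marrow ASC and 26.1, 4.82 and 16.03 in naive B cells. It was 1 of 3 genes called higher among 4 tested markers of NK and innate lymphoid cells, with Il2rb and Gzma (0 were lower); with voom 1 was higher, and on CPM as deposited 0 were higher and 1 lower of 2. The 12 markers of that list summed to 205.8, 266 and 198.7 in bone marrow ASC, 268.5, 210 and 282.1 in spleen ASC, and 84.9, 39.9 and 66.2 in naive B cells. Of the 12, 7 were at 0 in all bone marrow ASC libraries, among them Ncr1, Klrb1c, Klrd1 and Klrk1.

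Markers of the B cell precursors of marrow were present in all 3 bone marrow ASC libraries, with the highest sum in replicate 3. Igll1, the surrogate light chain gene lambda 5 (ENSMUSG00000075370, mm10 chromosome 16, 16860671 to 16863985, minus strand), stood at 52.5, 79.9 and 418 in bone marrow ASC and at 0 in all 6 spleen ASC and naive libraries. Vpreb1, its partner, stood at 25.2, 12.8 and 177 in bone marrow ASC and 0, 0 and 1.65 in naive B cells. With voom the adjusted p was 0.382 for Igll1 and 0.411 for Vpreb1. The interleukin 7 receptor gene Il7r stood at 2.52, 0 and 69.7 in bone marrow ASC and Myb at 13.4, 4.44 and 85.1. Rag1 and Dntt, of earlier or recombining precursors, were at 0 in all 9 libraries. Over the list 5 of 8 tested markers were higher and 0 lower (2 higher and 2 lower of 4 on CPM as deposited), and with voom 1 was higher. Filtered at a mean of 1, 6 of 12 were higher and 0 lower. The 15 markers summed to 1110, 1012 and 1852 in bone marrow ASC and 279 to 320 in naive B cells. Cd93 and Vpreb3 made up the larger part in bone marrow ASC replicates 1 and 2. Among the marrow libraries, Igll1, Vpreb1, Il7r, Myb, Ccnd3, Pax5 and the summed mitosis genes were highest in replicate 3 and Cd93 was lowest there; the part of precursors in the cell cycle result was not tested. Replicates 1 and 2, which also held Igll1 and Vpreb1, had mitosis sums of 635 and 655 rescaled CPM, against at most 174 in naive B cells. On CPM as deposited their sums were 110 and 108, within the naive range of 79.6 to 167.

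**Figure D4:**
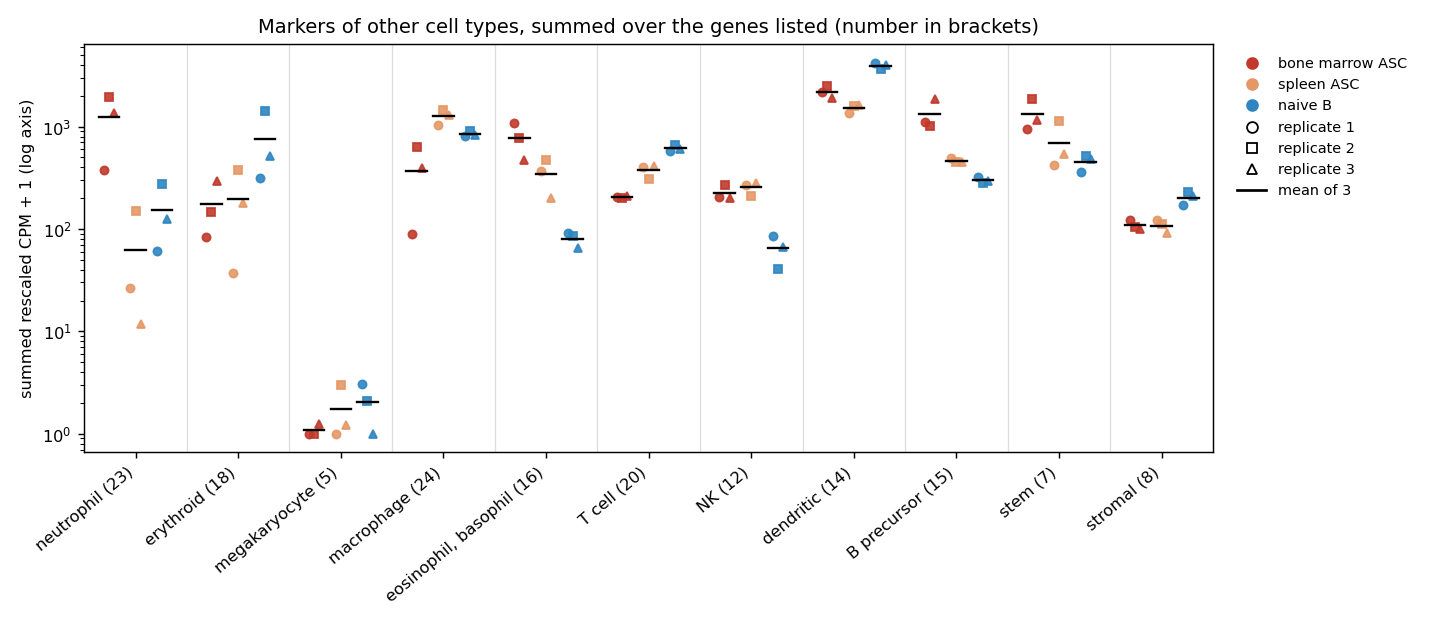
Summed rescaled CPM plus 1 (log axis) of markers of 11 other cell types in each library, with the number of genes in brackets. Bone marrow ASC, spleen ASC and naive B cells run from left to right for each type, symbols mark replicates and bars the mean of 3. Neutrophil markers reach 378.4 to 1947 in bone marrow ASC and at most 274.7 in naive B cells, erythroid markers are lower in bone marrow ASC, and the B precursor sum is highest in bone marrow ASC replicate 3.

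Few genes passed between bone marrow ASC and spleen ASC at this depth. Of 8961 genes tested, 5 (0.0558%) passed: Igll1 and Mpo were higher and Apoe, Anxa2 and Ifi27l2a lower in bone marrow ASC, all with a limma adjusted p = 0.0416, and 831 genes (9.27%) had an unadjusted p under 0.05. Of the genes that rose (0.0223% of those tested), Igll1 is on the list of B cell precursors and Mpo on that of neutrophils and their precursors; 0.0335% fell. Anxa2, a membrane-binding annexin, stood at 50.8, 26.1 and 34.1 in bone marrow ASC and 377.5, 171 and 373 in spleen ASC (log2 fold change −2.98, SE 0.38). Apoe, a lipid carrier made by macrophages and here also present in naive B cells, stood at 17.6, 84.9 and 42.8 in bone marrow ASC and 684, 1158 and 1002 in spleen ASC (log2 fold change −4.49, SE 0.49). Ifi27l2a, an interferon-induced gene, stood at 30.7, 34.5 and 27.4 in bone marrow ASC and 176, 131 and 224 in spleen ASC (log2 fold change −2.45, SE 0.29). The calls depended on single libraries: 10 genes passed without bone marrow ASC replicate 1, 1 without replicate 2 and 0 without replicate 3 (limma, 780 at an unadjusted p under 0.05). Without spleen ASC replicate 1, 2 or 3 there were 0, 1 and 0.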

How the data were processed

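RNA was sequenced from sorted cells. The authors deposited CPM per gene in tables of 19416 genes, each column summing to 1000000. STAR and mm10 are named in the submitters' processing notes; their versions, the read counter, its annotation and its strandedness are not stated in the labels or headers. Low values were near whole reads (85.6% to 88.8% within 0.02 of a whole read, below 1000 reads), so the worth of 1 read gave 11.4 to 17.6 M assigned reads per library, but the CPM come from estimated counts and no count model was used as the main test. The members and the 31 gene lists were chosen with earlier results of these data known.

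Tables were joined on gene symbol, 271 immunoglobulin rows and Jchain were left out, and the CPM were rescaled to 1000000. Rows whose names had become dates (19) were not tested. Genes with a mean of at least 10 over the 6 libraries of a comparison were tested with limma 3.58.1 in R 4.3.3 (lmFit, eBayes with trend) on log2(rescaled CPM + 1), with no covariate and Benjamini-Hochberg adjustment over all genes tested; an adjusted p under 0.05 was called. Sums, motif searches and figures used Python 3.11.15, pandas 2.3.3 and matplotlib 3.10.9. Positions came from GENCODE M21 (96.4% of symbols found) and promoters from RefSeq (GRCm38.p6). Folds against a group at 0 use a floor of 3 reads per library, which covers counting error only.

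Genes named are the 10 largest called rises and the 10 largest called falls among genes without overlap between groups and with 50 rescaled CPM or more (predicted genes, receptor segments and pseudogenes left out; 1 of the falls is not reported here), up to 4 called members of each list, 5 in each direction against spleen ASC, and a fixed set; other marker genes (such as Epx, Il7r, Klrd1, Pou2af1 and Trbc1) were chosen after their values were seen. The fit was checked on simulated data, with 50 genes changed at each size. Against naive B cells it recovered 4% of 2-fold, 38% of 4-fold and 72% of 16-fold changes, and called 0.0928% of unchanged genes. The changed genes stood among 8624 unchanged ones, whereas 26.4% of genes were called in the data, so recovery in the data may differ. Against spleen ASC the fit recovered 2%, 40% and 62%. A gene that did not pass may therefore still differ. Alternatives covered the scaling, pseudocount, filter, trend, robust estimation, array weights, threshold, replicate block and leaving out each library; voom was added after the data were seen.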

Additional observations from a re-analysis of the deposited data

How the results depend on the processing

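Against naive B cells, the 2433 calls (1294 higher, 1139 lower) moved by over 1.5 times with the scaling, where CPM as deposited gave 6760 (126 higher, 6634 lower), and with stricter thresholds, where an adjusted p under 0.01 gave 1257 (699 higher, 558 lower) and a minimum log2 fold change of 1 gave 691 (419 higher, 272 lower). A filter at a mean of 50 left 842 higher among fewer genes tested, and voom on estimated reads, added after the data were seen, gave 732 lower; the cause of the voom difference was not tested. Leaving out 1 library gave 1499 to 2657 calls, 888 to 1185 higher and 611 to 1472 lower, over bone marrow ASC and naive libraries. Against spleen ASC, 5 calls became 194 on CPM as deposited, 1 with a filter at a mean of 1, without the trend or with voom, and 0 with carry-over and mitochondrial genes left out (823 at an unadjusted p under 0.05), with a pseudocount of 0.1 (791 unadjusted), with no filter, with robust estimation, at an adjusted p under 0.01 or with a minimum log2 fold change of 1; leaving out 1 library gave 0 to 10. Of the named genes under all alternatives, 2015 results kept direction and side of the threshold, 210 fell short of it, 3 passed it newly and 0 changed direction once CPM as deposited were read relative to the median of all genes.

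Same-numbered libraries of bone marrow ASC and naive B cells deviated together with correlations of 0.00383, 0.0327 and −0.0118, against −0.0342 to 0.0311 between differently numbered ones. None was over 0.1, so the numbers were not read as pairs. With the replicate number as a block, 2043 genes were called against naive B cells (1066 higher, 977 lower) and 3 against spleen ASC. Depth limits low genes most, since 3 reads stand for 1.17 rescaled CPM in bone marrow ASC and 0.261 in naive B cells on average.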
